A study of Homo sapiens with 6 samples.

Results

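The heat shock protein and chaperone genes were taken from the table of gene expression as the protein-coding rows whose symbol begins with HSPA, HSPB, HSPD, HSPE, HSPH, HSP90, DNAJA, DNAJB, DNAJC, CCT or BAG followed by a digit or by A or B, together with TCP1. This rule found 78 genes among 15897 listed genes, of which 13617 were protein-coding. RNA-seq levels were given for 6 libraries of H1650, an established lung adenocarcinoma cell line, as FPKM (fragments per kilobase of transcript, scaled to the mapped fragments of the library). The 3 control libraries were labelled wild type, and the other 3 were labelled shSETD2, cells made to carry a short hairpin RNA against SETD2, the methyltransferase that trimethylates lysine 36 of histone H3. The study's methods describe lentiviral lines made with several hairpin constructs, but the labels do not say which construct a library carries, nor whether control cells received an empty or non-targeting vector, and separate cultures are not named, so p-values measure only the spread between these libraries.

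Chaperones bind proteins that are unfolded or partly folded and help them to fold, to assemble or to be degraded. Hsp70 proteins (HSPA genes) bind and release short hydrophobic stretches in a cycle driven by ATP. J-domain proteins (DNAJ genes) bring clients to Hsp70 and stimulate its ATPase, and BAG proteins and Hsp110 (HSPH1, HSPA4, HSPA4L) exchange its nucleotide. Hsp90 acts late in the folding of kinases and steroid receptors, small heat shock proteins (HSPB genes) hold unfolded proteins without ATP, Hsp60 with Hsp10 (HSPD1, HSPE1) forms the mitochondrial folding chamber, and TCP1 with the CCT proteins forms the cytosolic ring that folds actin and tubulin. Heat shock factors raise a part of these genes upon protein damage, by binding heat shock elements in their promoters. A separate response to unfolded proteins in the endoplasmic reticulum (ER) acts through ER stress elements.

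Some values of the whole series bear on every result. Control replicates 1 to 3 had 18.0, 10.2 and 17.6 FPKM of SETD2 itself, and shSETD2 replicates 1 to 3 had 8.97, 8.09 and 12.2 FPKM, a log2 fold change of -0.58 (SE 0.24, adjusted p = 0.0641 in limma), so the groups overlapped and the targeted gene did not pass the test. The study reports reduced SETD2 in H1650 knockdown cells by qPCR and western blotting, which are other measures than FPKM. Correlations of log2(FPKM + 1) over genes were 0.982 to 0.990 between libraries of the same group and 0.701 to 0.707 between groups. Of 10 lung epithelium markers 2 were listed, and NKX2-1, the lung lineage factor, was at 1.71, 1.80 and 1.44 FPKM in the control libraries and listed at 0 in all 3 shSETD2 libraries. The listed epithelium markers (8 of 9) summed to 14.3 to 16.2 FPKM in control and to 406.1 to 458.9 FPKM in shSETD2 libraries. This sum was carried by the keratins KRT7, KRT8 and KRT18 (the last at 9.11 to 10.8 and at 236.5 to 266.2 FPKM). Of the 5 tested, 4 were higher and 1 lower. ELF3 was higher too (0.221 and 4.23 FPKM, 2.10 in log2 fold change), as were the untested ESRP1 (0.0176 and 0.803 FPKM) and CLDN4 (0.067 and 0.175 FPKM). CDH1 (-1.15 in log2 fold change) and the untested EPCAM (0.710 and 0.220 FPKM) were lower. Markers of embryonic kidney lines (9 of 9 listed) summed to 46.9 to 49.8 and to 18.7 to 21.6 FPKM, with 4 of them listed at 0 in every shSETD2 library, LIN28B among these (20.7 to 22.3 FPKM in control), whereas PAX2, LHX1 and WT1 were higher, so that of the 8 tested 3 were higher and 5 lower. Mesenchyme markers (8 of 8 listed) summed to 118.3 to 132.9 and to 170.0 to 180.3 FPKM, but 3 were higher and 4 lower: VIM (66.5 and 132.4 FPKM) carried the sum, while SNAI2, COL1A1, ZEB2 and TWIST1, which was listed at 0 in every shSETD2 library, were lower. The identity and marker differences between the groups move with every comparison here, and their part in the chaperone results was not tested. In bulk RNA, fewer cells of a type and less RNA per cell cannot be told apart.

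Promoters of the chaperone genes were searched for the elements that these responses use, since the genes that moved include textbook targets of each. The RefSeq promoter table (GRCh38.p14, 250 bases before to 50 bases after each gene start) held 71 of the 78 genes. A heat shock element of 3 units (GAANNTTCNNGAA, either strand) was found in 6 of these 71 (8.45%) and in 166 of all 27305 genes with a promoter (0.608%). The 6 genes were HSPD1, HSP90AA1, HSP90AB1, HSPA8, DNAJA1 and DNAJB6, of which 4 were higher and 2 lower in shSETD2 libraries at the thresholds given below, beside 26.8% higher and 51.8% lower of all genes tested. The shorter 2-unit form (GAANNTTC), which every 3-unit match contains, was found in 16 of 71 (22.5%) and in 8.21% of all genes, and of the 15 that were tested 7 were higher, 7 lower and 1 neither. An ER stress element (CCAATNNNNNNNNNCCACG, either strand) was found in HSPA5 and HSP90B1, which is 2.82% of the genes searched, and in 0.0916% of all genes. The stretches below were located in GRCh37 by an exact match, lie upstream of the RefSeq gene start (12 bases of the HSPA5 stretch are annotated as exon), and have the matching bases in capitals. They show the ER stress element of HSPA5, the 3-unit elements of HSP90AA1 and HSP90AB1, which moved in opposite directions, and of DNAJB6, and the nearly identical stretches of HSPA1A and HSPA1B.
HSPA5, chr9:128003650-128003708, minus strand, ER stress element: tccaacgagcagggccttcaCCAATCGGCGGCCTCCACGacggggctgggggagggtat
HSP90AA1, chr14:102553437-102553489, minus strand, 3-unit element on the opposite strand: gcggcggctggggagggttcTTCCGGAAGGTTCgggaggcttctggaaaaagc
HSP90AB1, chr6:44215495-44215547, plus strand, 3-unit element on the opposite strand: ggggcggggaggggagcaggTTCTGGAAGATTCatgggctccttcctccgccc
HSP90AB1, chr6:44215548-44215600, plus strand, 3-unit element on the opposite strand: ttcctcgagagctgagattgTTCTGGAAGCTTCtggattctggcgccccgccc
DNAJB6, chr7:157129547-157129599, plus strand, 3-unit element: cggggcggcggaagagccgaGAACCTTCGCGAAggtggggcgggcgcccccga
HSPA1A, chr6:31783194-31783241, plus strand, 2-unit element: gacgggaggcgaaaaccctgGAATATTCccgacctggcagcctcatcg
HSPA1B, chr6:31795390-31795437, plus strand, 2-unit element: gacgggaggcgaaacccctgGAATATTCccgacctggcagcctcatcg

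The HSPA1A and HSPA1B stretches were equal at 47 of 48 bases. A match is a description of these letters and is no measured binding site.

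Chaperone genes moved in both directions between the groups, and the share called was close to that of all genes. Genes with a mean of at least 0.5 FPKM were tested with limma on log2(FPKM + 1), which left 75 of the 78 and 14068 genes in all, and a gene was called at an adjusted p under 0.05. From here on, a signed value in parentheses is the log2 fold change of shSETD2 over control on that scale, an adjusted p is that of limma, and ± is the SD over 3 libraries. Of the 75, 26 were higher and 33 lower in shSETD2 libraries and 16 were neither, so that 59 (78.7%) were called against 78.6% of all genes tested. Higher calls made up 34.7% of the chaperone genes and 26.8% of all genes, and lower calls 44% and 51.8%. The values of all 3 shSETD2 libraries lay above or below all control values for 58 chaperone genes (77.3%) and for 80.9% of all genes. The median log2 fold change was -0.12 over the chaperone genes and -0.29 over all genes tested, and this last value is the shift against which the folds given below may be read. Scaling each library by its median ratio to the geometric mean moved the median of all genes to -0.01 and that of the chaperone genes to 0.17, with 35 higher and 17 lower calls, so higher calls went from 44.1% to 67.3% of the called chaperone genes. The calls over all genes shifted the same way, from 3774 higher and 7283 lower to 5305 higher and 5394 lower. For the chaperone genes, quantile normalization gave 27 higher and 27 lower calls (50.0% higher) and a median of 0.01, against -0.11 for all genes.

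Changes of more than 2-fold on the log2(FPKM + 1) scale were seen in 14 chaperone genes. The 7 higher genes were DNAJC5, DNAJB6, HSPB1, CCT5, DNAJB2, DNAJC15 and HSPA5, which is 9.33% of the chaperone genes beside 11.2% of all genes tested. The 7 lower genes were DNAJC12, HSPA1B, DNAJC18, HSPA4L, HSPA14, BAG4 and HSPA12A, again 9.33% and beside 18.7% of all genes. With median ratio scaling 10 genes were over 2-fold higher and 5 lower, where BAG4 (-0.82) and HSPA12A (-0.76) no longer passed 2-fold, and after quantile normalization 5 were higher and 6 lower. None of the 14 genes named turned its sign under median ratio scaling or quantile normalization. The groups did not overlap in any of the 14, which is no separate support, since these genes were picked by adjusted p and size of change.

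**Figure D1:**
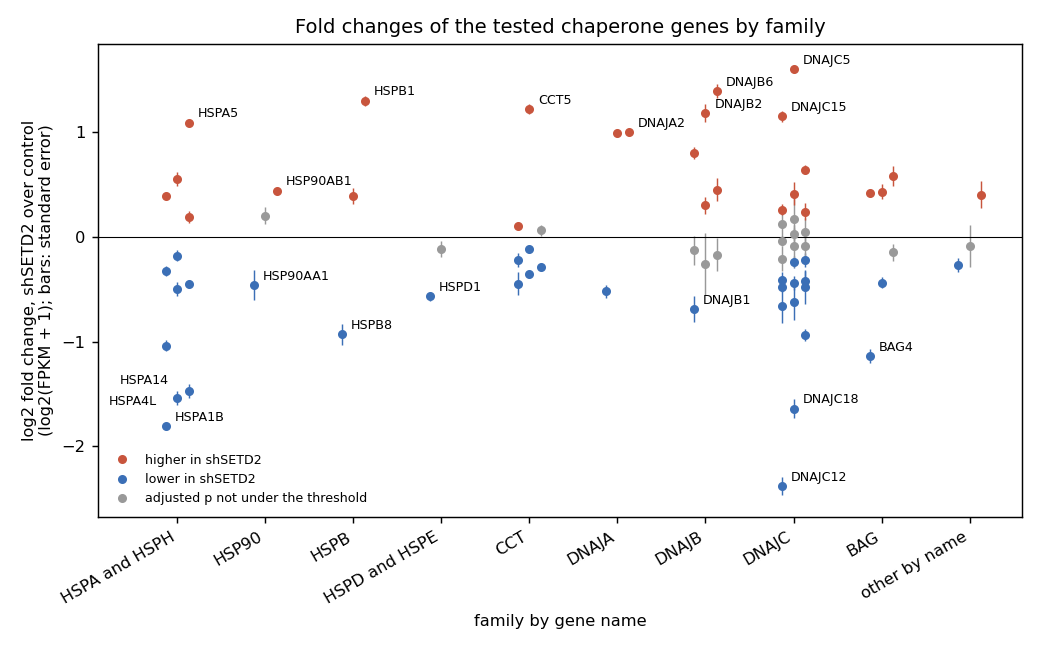
Log2 fold change of shSETD2 over control (y axis, log2(FPKM + 1) scale, bars are standard errors from limma) for the 75 tested chaperone genes, grouped by family on the x axis and coloured by call. Every family with 3 or more tested genes held members on both sides of 0, from DNAJC12 at -2.38 to DNAJC5 at 1.60, and 15 genes with a negative value turned positive under median ratio scaling.

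The Hsp70 and Hsp110 genes formed the family with the widest spread apart from the J-domain genes. Of 12 genes, 4 were higher and 8 lower, with a median log2 fold change of -0.39 (-0.04 with median ratio scaling, 5 higher and 5 lower). This stands beside 26.8% higher and 51.8% lower of all genes tested and their median of -0.29. HSPA5, the Hsp70 of the ER lumen (GRCh37 chr9:127997132-128003609, minus strand), rose. Its level was 128.5, 128.8 and 131.8 FPKM in control and 273.2, 279.1 and 280.9 FPKM in shSETD2 libraries. Every shSETD2 value lay above every control value, and the log2 fold change was 1.09 (SE 0.027, adjusted p = 2.14e-07).

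The stress-inducible Hsp70 genes HSPA1A and HSPA1B lie in tandem in the MHC region of chromosome 6, with 9788 bases between them, and encode nearly identical proteins. HSPA1B (chr6:31795512-31798032, plus strand) was at 279.2, 279.3 and 272.7 FPKM in control and at 78.9, 74.9 and 80.5 FPKM in shSETD2 libraries, a log2 fold change of -1.81 (SE 0.036, adjusted p = 8.78e-08). HSPA1A (chr6:31783241-31785723, plus strand) was at 123.1, 125.0 and 119.9 FPKM in control and at 89.6, 86.4 and 92.6 FPKM in shSETD2 libraries, a log2 fold change of -0.45 (adjusted p = 4.54e-05) that was -0.10 with an adjusted p of 0.063 under median ratio scaling. Thus HSPA1B was the more abundant copy in each control library and the less abundant one in each shSETD2 library, with a ratio of HSPA1B to HSPA1A of 2.23 to 2.27 in control and 0.867 to 0.880 in shSETD2. The split between the copies is uncertain, since 73.8% of the 75-base windows of the HSPA1A transcript also occur in HSPA1B and 70.2% of those of HSPA1B occur in HSPA1A, and how reads matching both were assigned is not given in the sources used here. Their sum depends little on the split, as the transcripts compared are 2400 and 2517 bases long. It would still change if reads matching both copies were dropped or counted more than once. The sum was 402.3, 404.3 and 392.7 FPKM in control and 168.6, 161.3 and 173.1 FPKM in shSETD2 libraries, a log2 ratio of -1.25 with no overlap.

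The constitutive cytosolic Hsp70 gene HSPA8 was at 100.4, 85.2 and 89.7 FPKM in control and at 140.5, 131.4 and 133.0 FPKM in shSETD2 libraries, a log2 fold change of 0.55 (SE 0.066, adjusted p = 0.000268). The inducible genes and the constitutive one therefore moved in opposite directions. The summed HSPA1A and HSPA1B level was 4 to 4.74 times that of HSPA8 in control libraries and 1.20 to 1.30 times in shSETD2 libraries. HSPA5 likewise stood at 1.28 to 1.51 times HSPA8 in control and at 1.94 to 2.12 times in shSETD2 libraries. HSPA9, the mitochondrial Hsp70 that draws proteins through the inner membrane, was at 67.7, 68.0 and 67.8 FPKM and at 92.1, 88.7 and 87.1 FPKM, a log2 fold change of 0.39 (adjusted p = 4.99e-05).

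Apart from HSPA1A and HSPA1B, the lower Hsp70 genes were divergent or less abundant members. HSPA14, which acts with DNAJC2 on nascent chains at the ribosome, was at 11.9, 12.2 and 12.6 FPKM in control and at 3.76, 4.19 and 3.47 FPKM in shSETD2 libraries, a log2 fold change of -1.47 (adjusted p = 2.72e-06), with 14.5% of its windows also found in MSANTD7. HSPA14 was named after its values were seen, and its partner DNAJC2, also chosen so, was at 6.74 and 5.67 FPKM on average (-0.22, adjusted p = 0.0243, but 0.09 with adjusted p = 0.254 under median ratio scaling). HSPA12A, a distant Hsp70 relative, was at 5.89, 5.52 and 5.73 FPKM and at 2.32, 2.23 and 2.26 FPKM (-1.04, adjusted p = 3.64e-06). Both genes lie on chromosome 10, whose 536 tested genes had a median of -0.51, and their neighbours within 5 Mb had medians of -0.71 (43 genes, HSPA14) and -0.74 (40 genes, HSPA12A), the part of which was not tested. HSPA2, a gene best known from male germ cells, was near the filter at 0.771 ± 0.081 FPKM (SD, n = 3) in control and 0.256 ± 0.073 FPKM in shSETD2 libraries (-0.50, adjusted p = 0.000624), but at -0.02 with an adjusted p of 0.816 after quantile normalization. HSPA13, a microsomal Hsp70 without a substrate-binding domain, gave -0.18 (adjusted p = 0.0206) and turned to 0.16 (adjusted p = 0.0302) with median ratio scaling. Its call was lost when control replicate 1 (adjusted p = 0.063), control replicate 2 (0.0501), shSETD2 replicate 1 (0.0614) or shSETD2 replicate 3 (0.0633) was left out.

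The Hsp110 genes, nucleotide exchange factors of Hsp70, parted from each other. HSPA4L, a gene abundant in testis, was at 14.5, 13.6 and 13.5 FPKM in control and at 3.81, 4.55 and 3.99 FPKM in shSETD2 libraries, a log2 fold change of -1.54 (SE 0.069, adjusted p = 2.56e-06). HSPA4 was at 56.3 ± 2.3 FPKM in control and 44.7 ± 1.9 FPKM in shSETD2 libraries (-0.33, adjusted p = 0.000777), and at 0.02 (adjusted p = 0.715) with median ratio scaling. HSPH1, the heat-inducible member, was at 14.7 ± 0.74 and 17.0 ± 0.84 FPKM (0.19, adjusted p = 0.0184), a call that was lost without control replicate 1 (0.17, adjusted p = 0.059) or control replicate 3 (0.18, adjusted p = 0.0554).

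**Figure D2:**
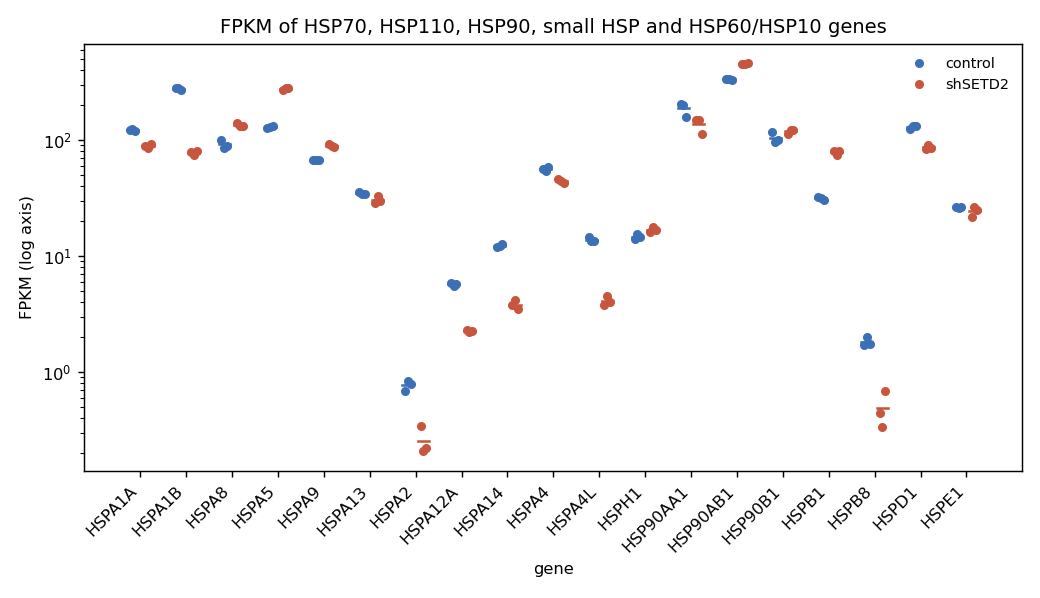
FPKM on a log axis (y) of the Hsp70, Hsp110, Hsp90, small heat shock protein, Hsp60 and Hsp10 genes (x) in each of the 3 control and 3 shSETD2 libraries, with bars at the group means. HSPA1B dropped below HSPA1A (78.1 against 89.6 FPKM on average), HSPA5 and HSPB1 moved up, and HSPA14 and HSPA4L moved down, while HSP90B1 and HSPE1 overlapped.

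The cytosolic Hsp90 paralogs moved apart as well. HSP90AB1, the constitutive paralog, was at 334.7, 337.7 and 332.7 FPKM in control and at 454.6, 452.7 and 459.3 FPKM in shSETD2 libraries, a log2 fold change of 0.44 (SE 0.023, adjusted p = 4.79e-06). HSP90AA1, the heat-inducible paralog, was at 204.1, 201.5 and 159.7 FPKM in control and at 149.2, 148.7 and 113.3 FPKM in shSETD2 libraries, a log2 fold change of -0.46 (SE 0.14, adjusted p = 0.0224). Replicate 3 was the lowest of both groups for HSP90AA1. The HSP90AA1 call was lost without control replicate 1 (-0.40, adjusted p = 0.0743), without control replicate 2 (-0.41, adjusted p = 0.0745) and with median ratio scaling (-0.11, adjusted p = 0.508). An ordinary linear model also lost the call (adjusted p = 0.0745 in that model). With the replicate number as a block the call was kept (SE 0.029, adjusted p = 0.00024). The ratio of the paralogs is not changed by multiplying a library by a factor: HSP90AA1 was at 0.610, 0.597 and 0.480 times HSP90AB1 in control and at 0.328, 0.329 and 0.247 times in shSETD2 libraries. All 3 shSETD2 ratios lay below all control ratios, and with 3 libraries against 3 the smallest two-sided p of an exact permutation test is 0.1. Both genes carry a 3-unit heat shock element in the promoter stretches shown above, HSP90AB1 in 2 places. HSP90B1, the ER paralog also known as GRP94, was at 116.7, 95.8 and 99.6 FPKM in control and at 112.6, 121.7 and 123.1 FPKM in shSETD2 libraries, which overlap (0.20, adjusted p = 0.0594). Without control replicate 1, the highest control library, it was called higher (0.28, adjusted p = 0.00499). With median ratio scaling HSP90B1 was also called higher (0.55, adjusted p = 0.000891), but it was at 0.002 (adjusted p = 0.986) after quantile normalization.

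Among the small heat shock protein genes, HSPB1 was by far the most abundant. HSPB1 (Hsp27, chr7:75931861-75933612, plus strand) was at 32.3, 31.8 and 30.2 FPKM in control and at 79.9, 74.5 and 81.3 FPKM in shSETD2 libraries, a log2 fold change of 1.30 (SE 0.048, adjusted p = 1.08e-06), and 8.94% of the windows of its transcript also occur in other transcripts. HSPB8, which works with BAG3 to send misfolded proteins to autophagy, was at 1.71, 2.01 and 1.74 FPKM in control and at 0.447, 0.334 and 0.686 FPKM in shSETD2 libraries (-0.93, adjusted p = 0.000179). HSPB11, which despite its symbol is a subunit of the intraflagellar transport complex of cilia, was at 6.41 ± 0.69 and 8.70 ± 0.34 FPKM (0.39, adjusted p = 0.00368). HSPB7 was not tested, with values of at most 0.0473 FPKM. The 4 listed genes summed to 39.7 ± 1.8 FPKM in control and 87.8 ± 3.5 FPKM in shSETD2 libraries, 2.21 times as much. HSPB2, HSPB3 and HSPB6 were not among the listed protein-coding genes, and nor were HSPA1L and the stress-inducible HSPA6. CRYAB, the alpha-crystallin that is an HSPB gene by sequence but not by symbol, was at 1.46, 1.39 and 1.42 FPKM in control and at 0, 0.0342 and 0 FPKM in shSETD2 libraries (-1.26, adjusted p = 1.8e-06), opposite to HSPB1.

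The mitochondrial chaperonin pair did not move together in the test of FPKM as deposited, though it did after quantile normalization. HSPD1 (Hsp60, chr2:198351305-198381461, minus strand) was at 124.6, 132.4 and 131.3 FPKM in control and at 84.3, 90.8 and 85.5 FPKM in shSETD2 libraries, a log2 fold change of -0.57 (SE 0.043, adjusted p = 2.79e-05), which was -0.22 (adjusted p = 0.00294) with median ratio scaling. HSPE1 (Hsp10) was at 26.5, 26.1 and 26.6 FPKM in control and at 21.6, 26.6 and 24.8 FPKM in shSETD2 libraries, which overlap (-0.12, adjusted p = 0.196). Without shSETD2 replicate 2 HSPE1 was called lower (-0.18, adjusted p = 0.0482), and with median ratio scaling it was called higher (0.22, adjusted p = 0.0332). After quantile normalization HSPE1 (-0.31, adjusted p = 0.00724) and HSPD1 (-0.82, adjusted p = 2.67e-05) were both called lower. The genes are divergent neighbours, and HSPE1 lies within the annotated locus of HSPD1 on the opposite strand over 3464 bases. As the counting setting for strand is not given, reads in that overlap cannot be assigned here, and 31.0% of the windows of HSPE1 occur in other transcripts. The ratio of HSPD1 to HSPE1 was 4.70 to 5.08 in control and 3.41 to 3.90 in shSETD2 libraries.

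In the CCT ring, 1 subunit gene moved against most of the others. Each ring position is filled by a different CCT protein, so the complex needs all 8 in equal number. CCT5 (chr5:10250033-10266524, plus strand) was at 53.0, 47.4 and 52.5 FPKM in control and at 121.2, 119.8 and 118.5 FPKM in shSETD2 libraries, a log2 fold change of 1.22 (SE 0.049, adjusted p = 1.58e-06). Of the other 7 ring genes 1 was higher, 5 were lower and 1 was neither, with log2 fold changes from -0.45 to 0.10 and a median of -0.22 (0.14 with median ratio scaling, where 3 were higher and 0 lower). After quantile normalization the median of these 7 was -0.45, against -0.11 for all genes. Over all genes tested 26.8% were higher and 51.8% lower as deposited, with a median of -0.29. CCT5 stood at 0.660, 0.624 and 0.706 times the mean FPKM of those 7 genes in control libraries and at 1.76, 1.81 and 1.76 times in shSETD2 libraries. In control libraries CCT5 was thus below the mean of the ring genes, and in shSETD2 libraries above it, a ratio that multiplying a library by a factor does not change.

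TCP1 was the lowest ring gene in all 6 libraries, at 44.5, 45.2 and 45.4 FPKM in control and at 34.9, 34.7 and 35.0 FPKM in shSETD2 libraries (-0.36, adjusted p = 5.72e-05, but -0.01 with adjusted p = 0.732 under median ratio scaling). CCT8 was at 80.8 ± 1.9 and 66.0 ± 2.0 FPKM (-0.29, adjusted p = 0.000403), CCT3 at 88.2 ± 10.7 and 64.0 ± 6.3 FPKM (-0.45, adjusted p = 0.00732), CCT4 at 131.4 ± 8.6 and 113.0 ± 8.1 FPKM (-0.22, adjusted p = 0.0244) and CCT7 at 72.9 ± 1.5 and 67.0 ± 1.9 FPKM (-0.12, adjusted p = 0.02). With median ratio scaling CCT8 turned to 0.06 and CCT4 to 0.14 without a call, CCT3 was -0.10 without a call, and CCT7 was called higher at 0.23. The CCT4 call was lost without control replicate 1 (adjusted p = 0.0713), shSETD2 replicate 2 (0.0722) or shSETD2 replicate 3 (0.0758), and that of CCT7 without control replicate 3 (0.0641). CCT2 was at 47.9 ± 0.79 and 51.5 ± 1.6 FPKM (0.10, adjusted p = 0.0425) and lost its call when any of the 6 libraries was left out (adjusted p = 0.0562 to 0.115). CCT6A, at 71.9 ± 2.3 and 75.2 ± 4.7 FPKM, was not called (0.06, adjusted p = 0.327). With median ratio scaling CCT2 (0.45, adjusted p = 3.96e-05) and CCT6A (0.41, adjusted p = 0.00046) were called higher. After quantile normalization both were called lower, CCT2 at -0.16 (adjusted p = 0.0116) and CCT6A at -0.20 (adjusted p = 0.0211). The testis paralog of CCT6A, CCT6B, was below the filter, at 0.752, 0.477 and 0.484 FPKM in control and at 0.0879, 0.0319 and 0.0561 FPKM in shSETD2 libraries.

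The summed level of the CCT genes was 589.7 ± 22.3 FPKM in control and 591.4 ± 10.2 FPKM in shSETD2 libraries, so the rise of CCT5 and the lower levels of its partners left the sum within the spread between libraries. With median ratio scaling the sum was 1.28 times the control, and after quantile normalization 0.847 times. The highest ring gene was 2.75 to 3.17 times the lowest in control and 3.39 to 3.50 times in shSETD2 libraries. CCT4 was the highest in all control libraries and in shSETD2 replicate 1, and CCT5 in shSETD2 replicates 2 and 3. The transcript of CCT5 shares 0.870% of its windows with another gene, CCT5P1. The 19 other tested genes within 5 Mb of CCT5 had a median log2 fold change of 0.90, against -0.18 for the 624 tested genes of chromosome 5, and the part of this neighbourhood in the CCT5 value was not tested. DNAJC21, a ribosome biogenesis factor on the same chromosome that was named after its values were seen, rose from 8.44 ± 0.078 to 13.7 ± 0.36 FPKM (0.64, adjusted p = 1.46e-05) amid 35 tested neighbours with a median of 0.70.

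**Figure D3:**
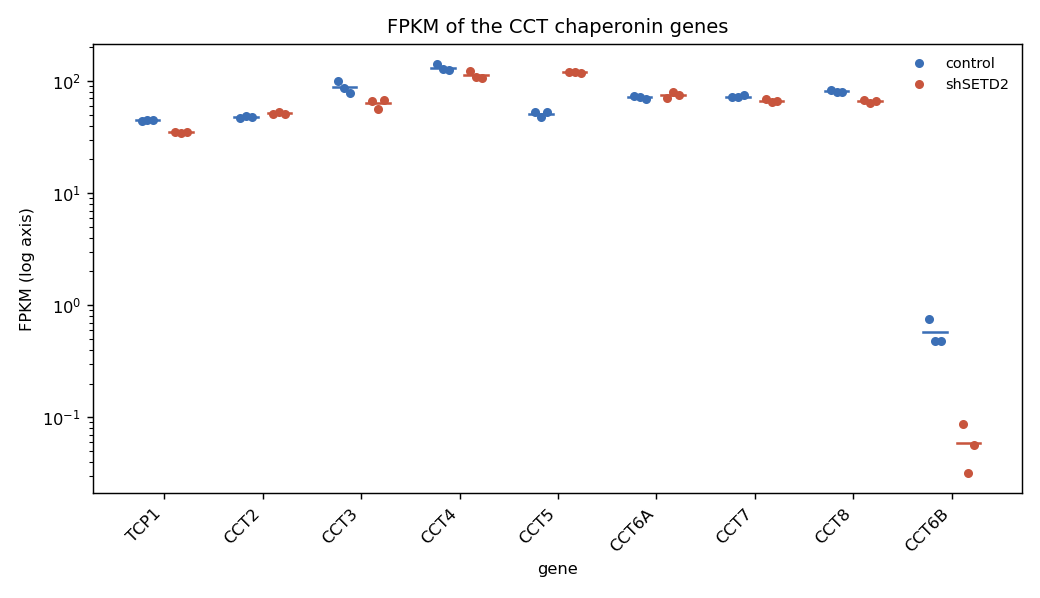
FPKM on a log axis (y) of TCP1 and the CCT genes (x) in each control and shSETD2 library, with bars at the group means. CCT5 moved from 51.0 to 119.8 FPKM, whereas the other 7 ring genes stayed within log2 fold changes of -0.45 to 0.10 (several of them turned positive under median ratio scaling), and the paralog CCT6B lay far below.

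Of the 3 tested genes of class A J-domain proteins, which resemble bacterial DnaJ, 2 were higher and 1 lower. The shares over all genes tested were 26.8% higher and 51.8% lower. DNAJA1, a cytosolic partner of HSPA8, was at 55.4, 53.6 and 55.0 FPKM in control and at 107.4, 115.1 and 107.0 FPKM in shSETD2 libraries (log2 fold change 0.99, SE 0.040, adjusted p = 1.65e-06). DNAJA2, another cytosolic partner, was at 17.0, 16.6 and 17.4 FPKM and at 34.2, 35.8 and 35.0 FPKM (1.00, SE 0.039, adjusted p = 1.45e-06), a value that did not exceed the 2-fold limit. The mitochondrial DNAJA3 was lower, at 9.17, 8.36 and 8.43 FPKM in control and at 5.51, 6.18 and 5.58 FPKM in shSETD2 libraries (-0.52, adjusted p = 0.000306). DNAJA4 was listed at 0 in 5 of 6 libraries and was not tested.

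Of the 9 class B genes, 5 were higher, 1 lower and 3 neither, with a median of 0.30. All genes tested had 26.8% higher and 51.8% lower calls and a median of -0.29. DNAJB6, which keeps polyglutamine proteins from aggregating, was at 7.30, 7.07 and 7.95 FPKM in control and at 21.2, 22.3 and 19.7 FPKM in shSETD2 libraries (1.39, SE 0.065, adjusted p = 3.07e-06), with 15.4% of its windows also found in other genes, mainly DNAJB6P1. DNAJB2, which has a like role in neurons, was at 1.93, 1.90 and 1.83 FPKM and at 5.61, 4.84 and 6.22 FPKM (1.18, adjusted p = 2.41e-05). DNAJB1 (Hsp40), the heat-inducible partner of HSPA1A, was the lower one, at 14.6, 17.2 and 18.8 FPKM in control and at 11.2, 10.5 and 8.54 FPKM in shSETD2 libraries (-0.69, SE 0.12, adjusted p = 0.002). DNAJB1 thus had the direction of HSPA1A and HSPA1B and not that of the constitutive HSPA8. The ER members DNAJB9, at 6.29 ± 0.040 and 11.7 ± 0.88 FPKM (0.80, adjusted p = 2.77e-05), and DNAJB11, at 8.30 ± 0.47 and 10.4 ± 1.1 FPKM (0.30, adjusted p = 0.0147), rose, as did HSPA5. The rest of the ER J-domain genes went both ways. DNAJB12 (0.45) and DNAJC10 (0.24) were higher. DNAJC1 (-0.94, and -0.62 with median ratio scaling), DNAJC18 (-1.64) and DNAJC25 (-0.24, but 0.06 with that scaling) were lower. DNAJB14, DNAJC3 and DNAJC16 were not called. Of the DNAJB11 windows 16.3% also occur in another gene. The DNAJB11 call was just lost without control replicate 3 (adjusted p = 0.0501) or shSETD2 replicate 3 (0.0502). DNAJB4 at 6.83 ± 1.3 and 6.08 ± 0.60 FPKM (-0.13, adjusted p = 0.395) and DNAJB5 at 2.35 ± 0.34 and 1.95 ± 1.1 FPKM (-0.26, adjusted p = 0.456) were not called. DNAJB4 was called lower without control replicate 1 (-0.28, adjusted p = 0.0307), and DNAJB5 turned to 0.10 without shSETD2 replicate 3, which was at 0.685 FPKM beside 2.69 and 2.47 FPKM in the other shSETD2 libraries.

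The class C genes, which share little beyond the J domain, held both ends of the whole set. Of 26 genes, 6 were higher, 12 lower and 8 neither (10 higher and 7 lower with median ratio scaling), with a median of -0.15, beside 26.8% higher and 51.8% lower of all genes tested and their median of -0.29. DNAJC5 (cysteine string protein, chr20:62526535-62567384, plus strand), which guards the fusion proteins of secretory vesicles, was at 14.7, 14.9 and 14.8 FPKM in control and at 46.4, 46.1 and 47.8 FPKM in shSETD2 libraries (1.60, SE 0.035, adjusted p = 1.3e-07). The 55 other tested genes within 5 Mb of DNAJC5 had a median of 0.53 and the 371 of chromosome 20 one of 0.39, and the part of this in the DNAJC5 value was not tested. DNAJC12 (chr10:69556423-69597924, minus strand), the partner of Hsp70 in folding the aromatic amino acid hydroxylases, was at 4.59, 5.05 and 5.84 FPKM in control and at 0.173, 0.128 and 0.229 FPKM in shSETD2 libraries (-2.38, SE 0.088, adjusted p = 1.11e-06). DNAJC18, an ER membrane protein named after its values were seen, was at 4.82, 5.76 and 5.76 FPKM and at 0.913, 1.09 and 1.18 FPKM (-1.64, adjusted p = 5.28e-06).

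DNAJC15 was the member that went from nearly no signal to signal. This J protein of the mitochondrial inner membrane (chr13:43597339-43688360, plus strand) was at 0.0133, 0.0341 and 0.0382 FPKM in control and at 1.23, 1.36 and 1.27 FPKM in shSETD2 libraries, a log2 fold change of 1.15 on the log2(FPKM + 1) scale (SE 0.054, adjusted p = 3.07e-06), which understates the change at such low values. It was the sole chaperone gene at 1 FPKM or more in every library of one group and under 0.1 FPKM in every library of the other. Its 41 tested neighbours within 5 Mb had a median of -0.75, opposite to its own direction.

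The remaining J-domain genes on the list by role moved less. DNAJC10, an ER disulfide reductase, was at 7.65 ± 0.50 and 9.21 ± 0.90 FPKM (0.24, adjusted p = 0.0326), and its call was lost without control replicate 1 (adjusted p = 0.061), control replicate 2 (0.0995), shSETD2 replicate 1 (0.0662) or shSETD2 replicate 2 (0.0731). DNAJC3, the ER-resident J protein known as P58IPK, was at 14.3 ± 0.41 and 14.6 ± 0.94 FPKM (0.03, adjusted p = 0.668), and DNAJC6, the auxilin that uncoats clathrin vesicles, at 4.88 ± 0.14 and 4.73 ± 0.18 FPKM (-0.04, adjusted p = 0.528). Both were called higher with median ratio scaling (0.36 and 0.26).

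The BAG family of nucleotide exchange factors was split as well, with 3 higher, 2 lower and 1 neither among 6. Among all genes tested 26.8% were higher and 51.8% lower. BAG4, also known as silencer of death domains, was at 16.6, 17.7 and 16.0 FPKM in control and at 6.54, 7.46 and 7.16 FPKM in shSETD2 libraries (-1.14, SE 0.064, adjusted p = 7.02e-06), amid 46 tested neighbours within 5 Mb with a median of -0.84. BAG3, the stress-inducible member, was at 10.5, 13.4 and 11.8 FPKM and at 18.7, 16.9 and 19.1 FPKM (0.58, adjusted p = 0.0012). BAG3 therefore rose while its partner HSPB8 fell. BAG2, an inhibitor of the ubiquitin ligase CHIP, rose from 3.71 ± 0.29 to 5.35 ± 0.39 FPKM (0.43, adjusted p = 0.00152), and BAG6, which receives tail-anchored membrane proteins, from 31.1 ± 0.98 to 41.8 ± 0.96 FPKM (0.42, adjusted p = 8.94e-05). BAG5 was at 11.8 ± 0.38 and 8.42 ± 0.41 FPKM (-0.44, adjusted p = 0.000283, and -0.11 with adjusted p = 0.0761 under median ratio scaling). BAG1 was at 2.40 ± 0.26 and 2.07 ± 0.22 FPKM (-0.15, adjusted p = 0.155).

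The 3 genes taken in by the pattern of their names were HSPBAP1, HSPE1-MOB4 and DNAJC25-GNG10. HSPBAP1, a protein that binds HSPB1, was at 1.57 ± 0.11 and 1.14 ± 0.12 FPKM (-0.27, adjusted p = 0.00997), and turned to 0.15 (adjusted p = 0.0783) after quantile normalization. The readthrough genes share 91.3% and 89.4% of their windows with other transcripts, overlap HSPE1 and DNAJC25 on the same strand, and are uncertain.

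**Figure D4:**
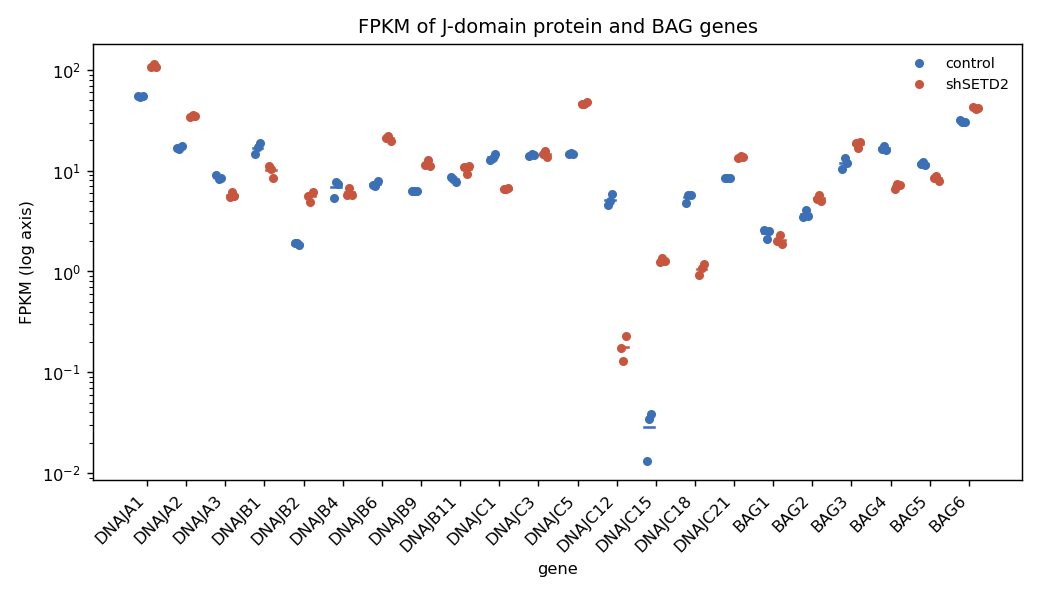
FPKM on a log axis (y) of J-domain protein and BAG genes (x) in each control and shSETD2 library, with bars at the group means. DNAJC5, DNAJB6 and DNAJC15 lay higher and DNAJC12, DNAJC18 and BAG4 lower in all 3 shSETD2 libraries, and DNAJC12 and DNAJC15 moved in opposite directions across 1 FPKM.

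Grouping the same genes by place and regulation gave counts in both directions, to be read beside the 26.8% higher and 51.8% lower calls and the median of -0.29 of all genes tested (5305 higher and 5394 lower of 14068 with median ratio scaling). Of 13 stress-inducible genes 4 were higher and 7 lower, with a median of -0.45 (5 and 5, median -0.10, with median ratio scaling). Of 10 constitutive cytosolic genes 6 were higher and 3 lower, with a median of 0.42 (6 and 0, median 0.74, with median ratio scaling). The inducible genes with lower levels were HSPA1A, HSPA1B, HSPA4L, HSP90AA1, HSPB8, HSPD1 and DNAJB1, and those that rose were HSPB1, HSPH1, DNAJA1 and BAG3. The split of the inducible genes was near that of all genes tested. The 13 ER members held 5 higher and 4 lower genes (median 0.03, and 8 and 2 with median ratio scaling), and the 10 mitochondrial members 3 and 4 (median -0.10, and 5 and 4). No difference between these groupings was tested.

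Genes that act with the chaperones were described in the same way, beside the same 26.8% higher and 51.8% lower of all genes tested. Of 4 listed genes of heat shock factors and their binding protein, HSF1 was higher, HSF2 and HSF4 were lower and HSBP1 was not called. HSF1, the main heat shock factor, was at 8.55, 8.82 and 10.8 FPKM in control and at 12.2, 12.1 and 14.9 FPKM in shSETD2 libraries (0.43, SE 0.11, adjusted p = 0.0116), whereas HSF2, a factor of development that pairs with HSF1, was at 12.8, 15.4 and 16.0 FPKM and at 3.39, 3.94 and 3.28 FPKM (-1.79, SE 0.10, adjusted p = 7.02e-06). Of 26 cochaperones of Hsp70 and Hsp90 5 were higher and 13 lower (median -0.28, near the -0.29 of all genes, and 8 and 8 with median ratio scaling), from GRPEL2, a mitochondrial exchange factor (-1.41, adjusted p = 0.0231), to NUDC, a cochaperone of Hsp90 (0.71, adjusted p = 1.33e-05). GRPEL2 was at 6.57 FPKM in control replicate 1 and at 22.8 and 22.0 FPKM in the other control libraries, and its call was lost with median ratio scaling (-1.09, adjusted p = 0.056). Of 11 prefoldin genes and other helpers of the CCT ring 6 were higher and 3 lower (median 0.18), with TXNDC9, which binds the ring, at 0.89 (adjusted p = 1.68e-05) and URI1, a prefoldin-like protein, at -1.17 (adjusted p = 9.98e-05).

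The other genes of ER folding and of the unfolded protein response held 12 higher, 5 lower and 6 uncalled genes of 23 (median 0.22, and 17 and 1 with median ratio scaling), beside 26.8% higher and 51.8% lower of all genes tested. DDIT3 (CHOP), the transcription factor of lasting ER stress, was at 9.79, 10.2 and 12.0 FPKM in control and at 33.8, 23.7 and 34.0 FPKM in shSETD2 libraries (1.42, SE 0.15, adjusted p = 0.000162). ATF4, which lies upstream of DDIT3 and is controlled mainly in translation, was at 303.1, 298.4 and 302.4 FPKM and at 173.3, 167.7 and 174.8 FPKM (-0.81, SE 0.028, adjusted p = 8.45e-07). HSPA5 and DDIT3 thus rose while the ATF4 transcript fell. The other lower genes of this list were XBP1 (-0.32), ATF6 (-0.48), ERN1 (-0.35) and PDIA6 (-0.21). With median ratio scaling ATF4 stayed lower (-0.45, adjusted p = 2.07e-05). Under that scaling XBP1 (0.03), ATF6 (-0.15) and ERN1 (-0.09) were not called, and PDIA6 was called higher (0.14). Of 12 genes of mitochondrial protein quality control 2 were higher and 8 lower (median -0.36, beside -0.29 for all genes, and 3 and 4 with median ratio scaling), from the matrix protease gene LONP1 at -0.95 (adjusted p = 2.08e-06) to SPG7, a subunit of an inner membrane protease, at 0.58 (adjusted p = 0.000393).

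Summed over the 78 genes, chaperone transcripts took 1.17% to 1.22% of all listed FPKM in control libraries and 1.24% to 1.29% in shSETD2 libraries. The sum was 2710, 2654 and 2603 FPKM in control and 2807, 2812 and 2779 FPKM in shSETD2 libraries. Its direction depended on the scaling, with a ratio of shSETD2 to control of 1.05 as deposited, 1.35 with median ratio scaling and 0.964 after quantile normalization. Within the sum, the Hsp70 and Hsp110 genes went from 827.3 ± 8.9 to 772.2 ± 4.7 FPKM (1.19 times the control with median ratio scaling) and the Hsp90 genes from 627.5 ± 32.4 to 711.8 ± 14.3 FPKM. The class A J-domain genes went from 80.4 ± 1.6 to 150.6 ± 5.7 FPKM, and were 1.62 to 2.40 times the control under all 3 scalings. The class B genes went from 59.3 ± 3.5 to 78.2 ± 3.1 FPKM and the class C genes from 190.9 ± 2.5 to 204.6 ± 4.3 FPKM. Hsp60 with Hsp10 went from 155.8 ± 4.1 to 111.2 ± 5.8 FPKM, a ratio below 1 under all 3 scalings (0.604 to 0.913).

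**Figure D5:**
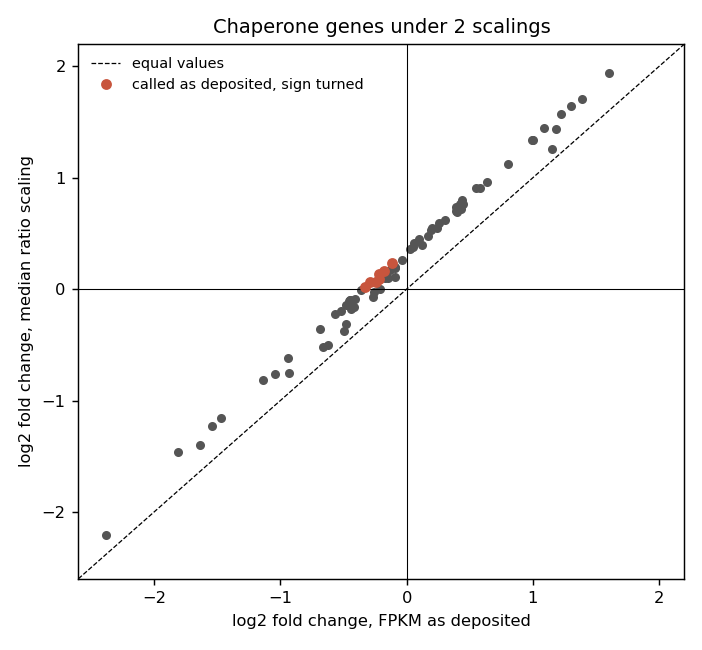
Log2 fold change of each tested chaperone gene from FPKM as deposited (x axis) and with median ratio scaling (y axis), both on the log2(FPKM + 1) scale, with a dashed line at equal values. The scaling moved the genes upward, and 7 genes called as deposited (red: CCT4, CCT7, CCT8, DNAJC2, DNAJC25, HSPA13 and HSPA4) turned from negative to positive, none of them among the 14 over 2-fold.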

How the data were processed

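Per the study's methods, RNA of H1650 cells was sequenced on HiSeq, and the authors mapped reads to hg19 with Hisat2 and quantified genes with Ballgown. The deposited values are FPKM per gene and library. A second table with the authors' own comparison was not used. The depth behind an FPKM value could not be recovered from its steps, so counting error is unknown. Tool versions, the filter on listed genes, read length and the strand setting of counting are not given in the sources used here.

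The test was limma 3.58.1 in R 4.3.3 (lmFit, then eBayes with trend) on log2(FPKM + 1) for control against shSETD2. It covered 14068 genes whose mean reached 0.5 FPKM, with Benjamini-Hochberg adjustment and a call at an adjusted p under 0.05. On this scale changes of low genes are understated. The fit was tested on simulated data. Alternatives were a pseudocount of 0.1, no filter, a mean of at least 5 FPKM, median ratio scaling, quantile normalization, an ordinary linear model, the replicate number as a block and each library left out.

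The chaperone genes and all lists were chosen with earlier results of these data known. Named were genes listed by role, the called gene with the largest rise and fall in each family without overlap, and any gene at 1 FPKM or more in one group and under 0.1 FPKM in the other. From other lists, the largest rise and fall, HSF1 and HSF2 were named. The remaining ER J-domain genes and the other lower genes of the ER folding list were added to show both directions. Coordinates are GRCh37 from the deposited files. Windows of 75 bases were matched between GENCODE v44lift37 transcripts, and promoters came from RefSeq.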

Additional observations from a re-analysis of the deposited data

How the results depend on the processing

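The depth behind each FPKM is unknown, so no limit from counting can be given, and 3 libraries a group limit the precision. The number of chaperone genes called lower was 33 as reported, 21 where a mean of at least 5 FPKM was required (which left 51 of them tested) and 17 with median ratio scaling. The number over 2-fold lower was 7 as reported, 12 with a pseudocount of 0.1 and 4 at a mean of at least 5 FPKM. Leaving out each library in turn gave values of -0.46 to 0.10 for DNAJB5 and of -0.02 to 0.07 for DNAJC3, and 23 to 24 genes were higher, 29 to 33 lower, 7 to 9 over 2-fold higher and 7 to 8 over 2-fold lower. Of 50 named genes tested, 26 kept direction and call under every alternative that could test them.

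Log2 fold changes had another sign with median ratio scaling for BAG1 (0.10), CCT4 (0.14), CCT7 (0.23), CCT8 (0.06), DNAJB4 (0.17), DNAJC6 (0.26), HSPA13 (0.16), HSPA4 (0.02) and HSPE1 (0.22). The sign also differed after quantile normalization for BAG1 (0.19), CCT2 (-0.16), CCT6A (-0.20), DNAJB4 (0.01), DNAJB5 (0.10), DNAJC3 (-0.002), DNAJC6 (0.14) and HSPBAP1 (0.15), without shSETD2 replicate 3 for DNAJB5 (0.10), and without shSETD2 replicate 2 for DNAJC3 (-0.02). The scalings differ in where they centre the libraries, and which is closer to the RNA in the cells was not tested.

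With the replicate number as a block, 24 chaperone genes were higher and 31 lower, and CCT2 (adjusted p = 0.055) and DNAJC10 (0.0784) were the named genes that lost their call. Deviations of same-numbered libraries correlated at -0.0237, 0.0177 and -0.00766, so no pairing by number was seen over all genes. Single genes are not covered by these values. With the block the SE was 0.029 for HSP90AA1 and 0.028 for CCT4, beside 0.14 and 0.068 without it. Whether same-numbered libraries were prepared together was not tested.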
